A study of Mus musculus with 4 samples.

Results

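Pseudogenes are annotated copies or relics of genes, and most make no protein. Of 56748 genes in the deposited liver values, 13649 carry a biotype that contains the word pseudogene. Those with signal in these livers, chosen by a mean of at least 2 FPKM (fragments per kilobase of transcript, scaled to library size) over all 4 libraries, number 436. The choice used the mean level of every library, so the levels below are a description, whereas the difference between treated and untreated livers was not used to choose them.

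All animals were NSG mice, an immunodeficient strain without mature lymphocytes, and the labels give their genotype as WT. Livers of 2 mice that received JIB-04, which blocks histone demethylases of the Jumonji family, were compared with livers of 2 untreated mice, to which the labels assign no vehicle. The compound was gavaged at 55 mg/kg, 2 times a week, until 5 doses were reached. Each library came from a separate animal, per the series' design text, so the spread within a group is between mice. With 2 libraries a group, an exact permutation test of a single gene cannot give a p below 0.333, and the moderated test of limma across all genes was used instead.

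A processed pseudogene is a retrocopy: a messenger RNA was copied into DNA and inserted elsewhere in the genome, so it usually has no introns and no promoter of its own. An unprocessed pseudogene is a duplicated gene that was disabled in place and therefore often lies beside its functional relatives. The drug-handling families of liver, the cytochromes P450 (oxidation), sulfotransferases (Sult, sulfate transfer), glutathione transferases (Gst, glutathione transfer) and carboxylesterases (Ces, ester hydrolysis), sit in tandem clusters that also hold pseudogenes.

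Because a short read from a coding gene can also match its copy, the likeness of the sequences is shown first, for 6 pseudogenes on which the results turn. Each pair below gives 90 bases, 5′ to 3′, of the pseudogene and of a coding gene that it resembles, from GENCODE M21 transcripts (GRCm38) matched by gene ID. Capitals mark the bases that differ within the pair. Gm8834 is a retrocopy on chromosome 10 of Gstm3, a mu-class glutathione transferase of chromosome 3.
Gm8834: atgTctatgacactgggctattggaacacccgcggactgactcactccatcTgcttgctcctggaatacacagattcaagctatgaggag
Gstm3: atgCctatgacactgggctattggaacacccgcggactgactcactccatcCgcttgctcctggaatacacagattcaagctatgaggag
Gstm2-ps1, on chromosome 5, is most like Gstm1 despite its name.
Gstm2-ps1: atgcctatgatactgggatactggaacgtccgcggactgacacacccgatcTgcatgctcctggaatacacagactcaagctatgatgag
Gstm1: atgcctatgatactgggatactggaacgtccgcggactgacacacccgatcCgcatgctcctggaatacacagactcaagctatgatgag
Gstp-ps, on chromosome 1, is shown beside Gstp1, the pi-class gene of highest level in these livers.
Gstp-ps: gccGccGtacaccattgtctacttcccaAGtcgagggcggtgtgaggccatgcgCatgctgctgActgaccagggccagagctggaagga
Gstp1: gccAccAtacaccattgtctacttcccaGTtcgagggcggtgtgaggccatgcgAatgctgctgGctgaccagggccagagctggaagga
Sult2a-ps1 is an unprocessed relic within the Sult2a cluster of chromosome 7 and has diverged more.
Sult2a-ps1: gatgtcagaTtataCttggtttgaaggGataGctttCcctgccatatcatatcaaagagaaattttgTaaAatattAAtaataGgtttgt
Sult2a1: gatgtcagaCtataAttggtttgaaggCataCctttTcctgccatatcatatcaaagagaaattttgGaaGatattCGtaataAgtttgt
Zbed4-ps1, in the same cluster, is a retrocopy of Zbed4, a zinc finger gene of chromosome 15.
Zbed4-ps1: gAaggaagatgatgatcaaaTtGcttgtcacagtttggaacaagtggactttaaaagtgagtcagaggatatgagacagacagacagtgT
Zbed4: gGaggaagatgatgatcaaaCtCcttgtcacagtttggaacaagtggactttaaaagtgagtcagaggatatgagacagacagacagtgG
Rpl34-ps1, the pseudogene of highest level, is identical over these bases to Rpl34, which encodes a protein of the large ribosomal subunit.
Rpl34-ps1: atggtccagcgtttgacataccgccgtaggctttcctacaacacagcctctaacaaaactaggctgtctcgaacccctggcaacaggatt
Rpl34: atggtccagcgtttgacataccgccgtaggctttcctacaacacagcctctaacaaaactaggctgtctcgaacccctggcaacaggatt

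How the authors' counter treated reads that match several places is not given in the sources used here. Values of near-identical copies are therefore uncertain, and reads of a copy and of its parent cannot be told apart where the sequences are the same. Over the 435 pseudogenes with a transcript in GENCODE M21, the median share of 50-base windows found exactly in another gene's transcript was 74.8%. All windows were shared in 73 pseudogenes and none in 16. Whether counting used strand is not given either.

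The libraries held 43283827 and 36469514 reads (JIB-04 1 and 2) and 36793474 and 36878654 reads (untreated 1 and 2), recovered from FPKM and gene length. Chosen pseudogenes took 0.619% and 0.677% of reads in JIB-04 livers, against 0.617% and 0.631% in untreated livers, so their overall share overlapped between groups. Summed FPKM of 7 hepatocyte markers was 46677 and 38739 in JIB-04 livers and 65868 and 62508 in untreated livers, and none of the 7 passed the test. Neutrophil markers summed to 43.9 and 71.5 in JIB-04 livers, against 25.5 and 6.47 in untreated livers. Erythroid markers summed to 616 and 1666 in JIB-04 livers, against 2754 and 1707 in untreated livers, and pancreas acinar markers to 3.38 and 4.09 in JIB-04 livers, against 6.96 and 12.1 in untreated livers. Groups did not overlap in the sums of these 4 lists. Nor did they in the stellate and fibroblast list (40.43 and 38.05 in JIB-04 livers, against 54.69 and 41.70 in untreated livers). Lymphocyte sums stayed under 1 FPKM and overlapped, at 0.469 and 0.365 in JIB-04 livers and 0.721 and 0.400 in untreated livers. The lymphocyte markers Cd3e and Ms4a1 were at 0 in all libraries. The part of these marker sums in the differences below was not tested. In whole liver, fewer cells of a type and less RNA per cell cannot be told apart.

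In all, 8 of the retrocopies and relics were higher in JIB-04 liver and only Gm3787 was lower. Those that rose were led by copies of glutathione transferase genes and by pseudogenes of the Sult2a cluster. The 9 calls (limma, Benjamini-Hochberg adjusted p under 0.05) are 2.06% of the 436, against 2.14% of all 10819 tested genes. By direction, 1.53% of all tested genes were higher and 0.619% lower. The share of pseudogenes called was thus near the background. Their median log2 change was 0.10 (264 above and 172 below 0), against 0.007 over all tested genes. Groups did not overlap, with JIB-04 higher, in 126 pseudogenes (28.9%, against 24.6% of all tested genes) and with JIB-04 lower in 53 (12.2%, against 21.8%). Of tested genes at the same mean level of at least 2 FPKM, 26.2% had JIB-04 higher without overlap. Among the 390 pseudogenes whose mean reached 2 FPKM in both groups it was 105 (26.9%), near that background. JIB-04 was lower without overlap in 43 of these 390 (11.03%). That share was well below the 21.47% of tested genes with a mean of at least 2 FPKM. With either JIB-04 library left out, fewer pseudogenes and also fewer of all tested genes passed the test. When a library is left out, its group holds a single one, assumed to vary like the other group. Without untreated 2 they were 7 higher and 4 lower, and without untreated 1 they were 9 and 2.

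By biotype, 370 were processed pseudogenes, of which 6 rose and 0 fell, with a median log2 change of 0.10. Single-exon models made up 362 of them. Of 30 unprocessed pseudogenes 1 rose and 0 fell (median 0.07). The annotation also marks some pseudogenes as transcribed. Of 21 transcribed processed ones 1 rose and 1 fell (median 0.15), and of 12 transcribed unprocessed ones 0 passed the test (limma), with 4 at an unadjusted p under 0.05 (median -0.04). The 2 members of plain biotype pseudogene and the 1 transcribed unitary pseudogene, Slc2a4rg-ps, did not pass. Whether biotypes differ in their change was not tested.

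**Figure D1:**
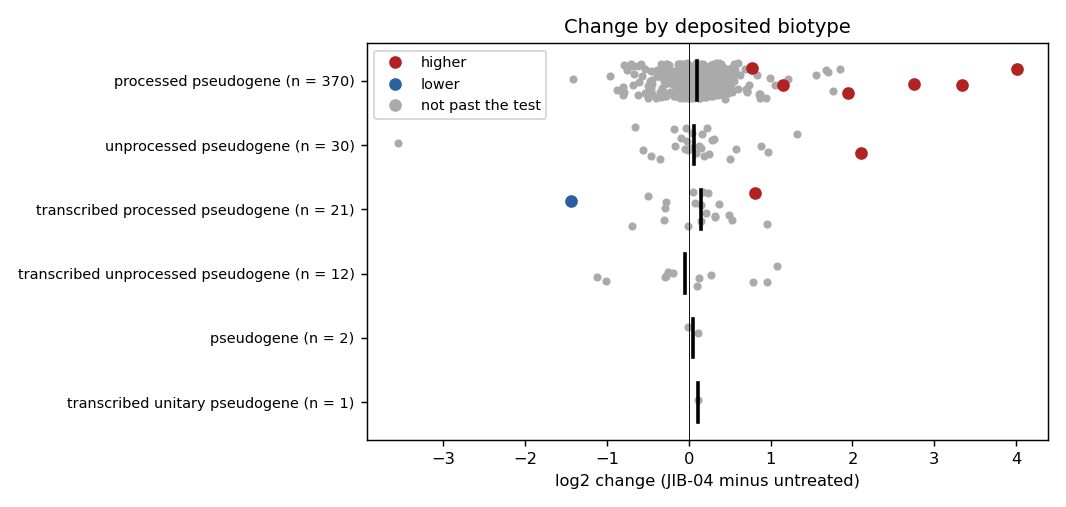
Each point is a pseudogene, placed by its log2 change in FPKM + 1 (JIB-04 minus untreated, x axis) and by its deposited biotype (y axis), and black bars are medians. Red points rose, the blue point (Gm3787) fell and grey points did not pass the test; 6 of the 8 red points are processed pseudogenes.

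A level of 2 FPKM was reached by both group means in 390 pseudogenes, by JIB-04 alone in 31 and by untreated alone in 15. For those chosen through a single group the direction is largely fixed by the choice, and 3 of the 9 calls are of that kind (Zbed4-ps1 and Sult2a-ps1 through JIB-04, Gm3787 through untreated).

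Copies of glutathione transferase genes were higher in JIB-04 liver, as were coding genes they resemble. All 4 pseudogenes whose best coding match was a Gst gene were called higher, a class formed after values were seen. None of them lies near a Gst cluster: the 5 Gst clusters are on chromosomes 3, 9, 10 and 19, and no chosen pseudogene is near any of them. Gm8834 (chr10:34774252-34774816, GRCm39, plus strand) had 57.3 and 68.3 FPKM in JIB-04 livers, against 2.41 and 3.51 FPKM in untreated livers. The groups stood far apart, 21.2-fold in their means (log2 change 4.02, SE 0.171, limma adjusted p = 0.000171). Its match Gstm3, 97.9% identical over the whole copy, had 3019 and 3633 FPKM in JIB-04 livers, against 59.3 and 62.3 FPKM in untreated livers. Gm8834 therefore stood at 1.90% and 1.88% of the Gstm3 level in JIB-04 livers, and at 4.07% and 5.64% in untreated livers. Its reading frame differs from that of Gstm3 by 10 substitutions and 1 frame-breaking gap.

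Gstm2-ps1 (chr5:116770967-116771623, minus strand) had 145 and 167 FPKM in JIB-04 livers, against 18.3 and 27.0 FPKM in untreated livers. That is the highest level of the 4 copies, and both treated livers exceeded both untreated ones (log2 change 2.75, SE 0.198, limma adjusted p = 0.00282). Gstm1, its match at 97.9% identity, averaged 2855 FPKM in JIB-04 livers and 671 FPKM in untreated livers (log2 change 2.10). In the Gstm1 frame Gstm2-ps1 has 14 substitutions and a stop at codon 166. Gm6665, on chromosome 18 within Wdr33 but on the opposite strand, had 22.3 and 26.1 FPKM in JIB-04 livers and 4.56 and 6.64 FPKM in untreated livers. Its groups did not overlap either (log2 change 1.95, limma adjusted p = 0.00555). Gstm2 was 98.8% identical to Gm6665 over the 95.7% of this copy that aligned. Gstm2 averaged 158 FPKM in JIB-04 livers and 41.1 FPKM in untreated livers, and Wdr33 2.80 and 2.85 FPKM.

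Gstp-ps (chr1:191758120-191758750, minus strand) lies inside the gene Traf5, an adaptor of tumour necrosis factor receptor signalling, on the same strand and outside its exons. It had 42.8 and 48.1 FPKM in JIB-04 livers, against 24.8 and 27.4 FPKM in untreated livers, a 1.74-fold difference (log2 change 0.78, SE 0.128, limma adjusted p = 0.0379). The host gene Traf5 averaged 1.36 FPKM in JIB-04 livers and 1.36 FPKM in untreated livers. Gstp2 is the closer relative by sequence (99.2% identity) but averaged only 0.498 FPKM in JIB-04 livers and 0.193 FPKM in untreated livers. Gstp1 (97.6%) had 167 and 159 FPKM in JIB-04 livers, against 78.2 and 88.4 FPKM in untreated livers (log2 change 0.96, adjusted p = 0.0195). Gstp-ps stood at 25.7% and 30.2% of the Gstp1 level in JIB-04 livers and at 31.7% and 31.0% in untreated livers, a little less in both JIB-04 livers. Of 19 tested coding Gst genes 7 rose and 0 fell.

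Gm8834 passed the test under every alternative run, including each left-out library. Without JIB-04 1 the adjusted p was 0.0802 for Gstm2-ps1, 0.0955 for Gm6665 and 0.140 for Gstp-ps, and without JIB-04 2 it was 0.0933, 0.123 and 0.201, in the same order. Gstp-ps also missed the threshold without untreated 1 (0.152) and without untreated 2 (0.0833).

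**Figure D2:**
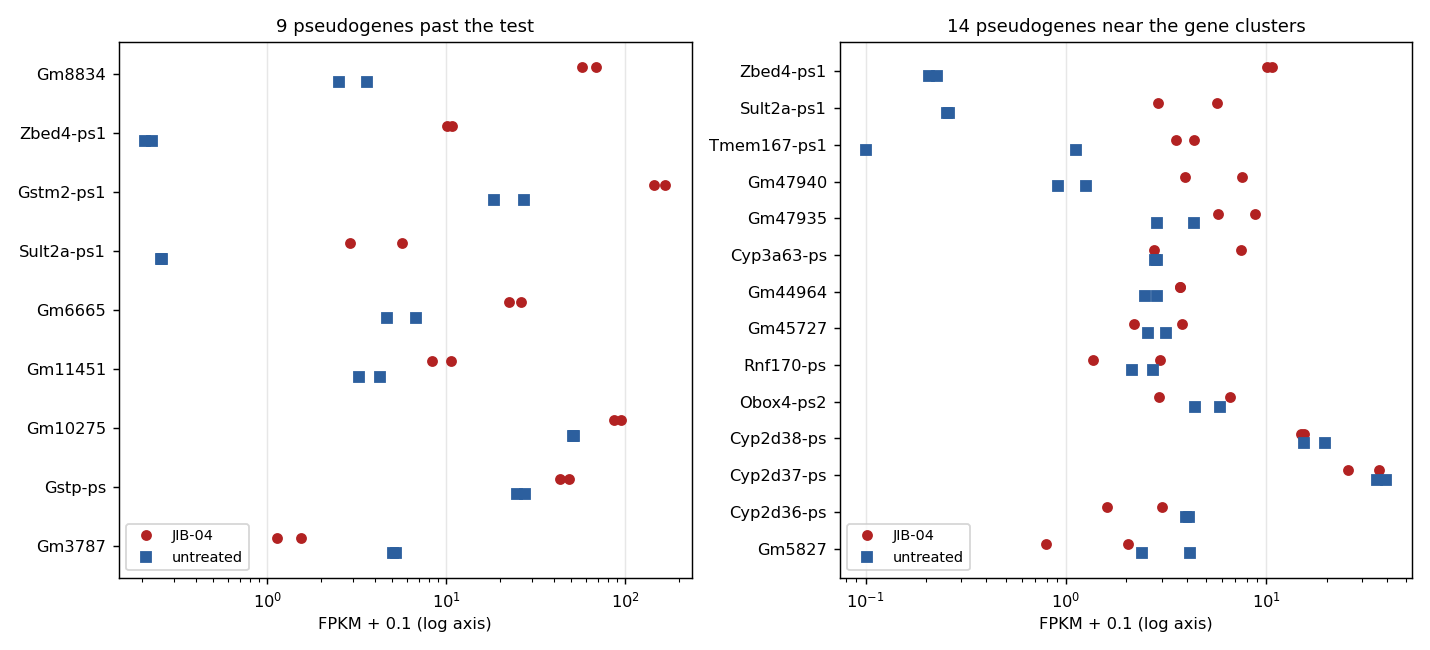
FPKM + 0.1 of each library (log x axis), red circles for JIB-04 and blue squares for untreated livers, for the 9 pseudogenes past the test (left) and the 14 near a P450, Sult, Gst or Ces cluster (right). In the left panel the groups are apart in every row, from Gm8834 (57.3 and 68.3 against 2.41 and 3.51 FPKM) to Gm3787, the row where JIB-04 is lower.

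Nearness was measured to 21 clusters, each with at least 2 coding genes of a family and at most 500 kb between neighbours. Of 173 annotated pseudogenes inside a cluster or within 100 kb of it, 71 had any read and 14 reached a mean of 2 FPKM. Those 14 are near 7 clusters: 7 near a P450 cluster, 6 near a Sult cluster, 1 near a Ces cluster and 0 near a Gst cluster. Near a cluster 2 rose and 0 fell of 14, with log2 changes between -0.88 and 3.34 and a median of 0.20. Both that rose reached 2 FPKM only through JIB-04, so their direction was set by the choice. Away from clusters 6 rose and 1 fell of 422 (median 0.10). The counts near clusters are too few to set against the background of 1.53% higher. At an unadjusted p under 0.05 (limma) there were 7 of 14 and 80 of 422, against 1680 of all 10819 tested genes, and 4 of the 7 (Zbed4-ps1, Sult2a-ps1, Tmem167-ps1 and Gm47940) were chosen through JIB-04 alone.

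Both that rose belong to the Sult2a cluster of chromosome 7, whose coding genes sulfonate bile acids and hydroxysteroids. Of its 7 tested coding genes 6 rose and 1 fell. Zbed4-ps1 (chr7:13373032-13376497, plus strand) had 9.96 and 10.6 FPKM in JIB-04 livers, against 0.126 and 0.107 FPKM in untreated livers. The treated livers were 88.4-fold higher in their means (log2 change 3.34, SE 0.125, limma adjusted p = 8.88e-05), from 1480 and 1352 reads in JIB-04 livers and 16 and 14 reads in untreated livers. This retrocopy lies within the span of Sult2a5 on the same strand, with 0 of its 3466 bases in Sult2a5 exons (GENCODE M21), so its reads and reads from the Sult2a5 intron cannot be told apart. Sult2a5 had 321 and 366 FPKM in JIB-04 livers, against 28.7 and 28.6 FPKM in untreated livers (log2 change 3.54). Zbed4-ps1 was 3.10% and 2.90% of that level in JIB-04 livers and 0.438% and 0.374% in untreated livers. The parent Zbed4 on chromosome 15, 92.3% identical, averaged 0.936 FPKM in JIB-04 livers and 0.786 FPKM in untreated livers and was too low to be tested.

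Sult2a-ps1 (chr7:13455004-13456390, minus strand) had 5.54 and 2.80 FPKM in JIB-04 livers, against 0.160 and 0.155 FPKM in untreated livers. Behind these values stood 81 and 35 reads in JIB-04 livers and 2 and 2 in untreated livers, a ratio of 26.8 with a 95% counting interval of 10.2 to 100 that covers counting error only. The test gave a log2 change of 2.11 (SE 0.264, limma adjusted p = 0.0248). It is 93.5% identical to Sult2a1, with 10.3% of its 50-base windows found elsewhere and a stop at codon 24 of the Sult2a1 frame. Sult2a1 had 1076 and 1184 FPKM in JIB-04 livers, against 23.0 and 13.2 FPKM in untreated livers (log2 change 5.93). The call for Sult2a-ps1 was lost without JIB-04 1 (adjusted p = 0.0684), without untreated 1 (0.123) and without untreated 2 (0.112), while Zbed4-ps1 kept its call in each.

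Tmem167-ps1, a retrocopy of a Golgi membrane protein gene, lies about as far into the cluster as Sult2a-ps1. It had 4.25 and 3.44 FPKM in JIB-04 livers, against 1.02 and 0 FPKM in untreated livers, and did not pass the test (log2 change 1.76, limma adjusted p = 0.119). The adjusted p was 0.00396 without untreated 1 and 0.0373 without untreated 2, but each of these fits sets a lone untreated library against JIB-04, the first with 0 reads in it, and takes the spread of Tmem167-ps1 from JIB-04 alone. Obox4-ps2, beyond the far end of the cluster, overlapped between groups, with 2.80 and 6.47 FPKM in JIB-04 livers and 4.32 and 5.75 FPKM in untreated livers. It is the nearest of the 4 to Sult2a7 rather than to the genes at the cluster's start.

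**Figure D3:**
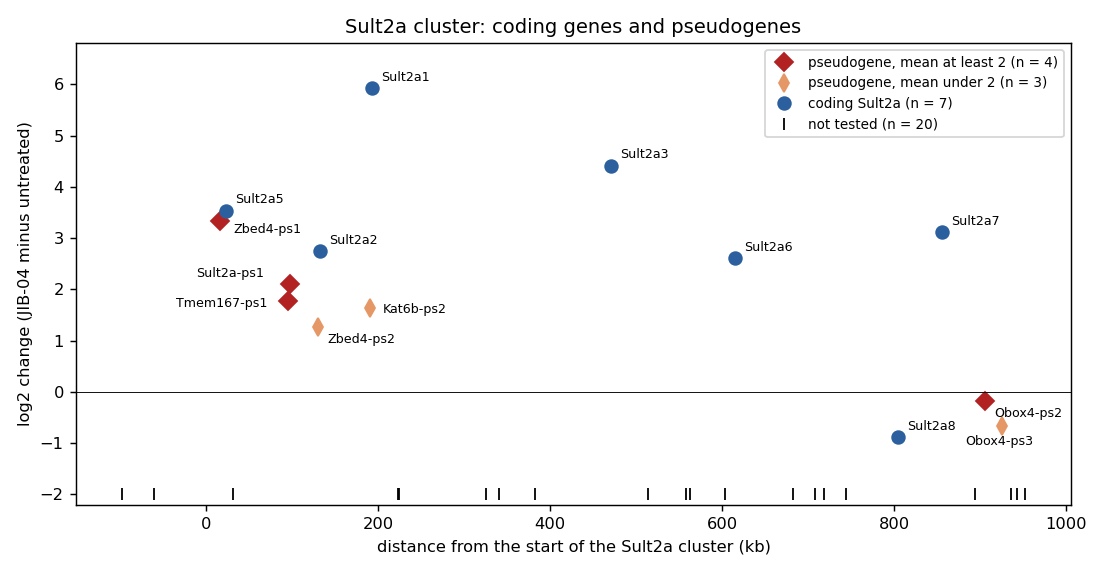
Log2 change in FPKM + 1 (JIB-04 minus untreated, y axis) of genes along the Sult2a cluster of chromosome 7, by distance from the start of the cluster in kb (x axis); ticks at the bottom are genes too low to test. Pseudogenes within the first 200 kb (Zbed4-ps1 3.34, Sult2a-ps1 2.11, Tmem167-ps1 1.76) lie above 0 with Sult2a5, Sult2a2 and Sult2a1, and Obox4-ps2 (-0.17) lies near 0 beyond Sult2a7.

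Below the level of 2 FPKM, 2 more retrocopies inside Sult2a genes were called higher (names chosen after their values were seen). Both reached the mean of 1 FPKM needed for the test only through JIB-04, so their direction was largely fixed by that filter. Zbed4-ps2, within Sult2a2, had 1.91 and 2.01 FPKM in JIB-04 livers, against 0.214 and 0.230 FPKM in untreated livers (log2 change 1.27, limma adjusted p = 0.00945). Kat6b-ps2, within Sult2a1, had 2.73 and 1.82 FPKM in JIB-04 livers, against 0.0170 and 0.0662 FPKM in untreated livers (log2 change 1.64, limma adjusted p = 0.00935). Both lie on the strand of their host gene, as Zbed4-ps1 does.

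The Sult3a cluster of chromosome 10 has 2 coding genes, Sult3a1 and Sult3a2, and neither passed the test (limma adjusted p = 0.942 and 0.226). Gm47940 had 3.84 and 7.47 FPKM in JIB-04 livers, against 1.16 and 0.807 FPKM in untreated livers. Its groups did not overlap, but the adjusted p was 0.0629 (limma, log2 change 1.70, on 27 and 45 reads in JIB-04 livers and 7 and 5 in untreated livers). It is 89.0% identical to Actg1, which encodes a cytoplasmic actin and averaged 53.4 FPKM in JIB-04 livers and 27.6 FPKM in untreated livers. Gm47935, inside Sult3a1 on the opposite strand, had 8.66 and 5.66 FPKM in JIB-04 livers and 4.25 and 2.75 FPKM in untreated livers (log2 change 0.85, limma adjusted p = 0.178). Sult3a1 itself averaged 624 FPKM in JIB-04 livers and 604 FPKM in untreated livers.

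Of the 7 pseudogenes near P450 clusters 0 passed the test (limma), and 2 had an unadjusted p under 0.05. Of 61 tested coding P450 genes, for comparison, 8 rose and 4 fell. The 3 in the Cyp2d cluster of chromosome 15 were lower in the mean of the JIB-04 livers. Cyp2d37-ps, the highest of them, had 25.5 and 36.4 FPKM in JIB-04 livers and 35.6 and 39.6 FPKM in untreated livers, and the groups overlapped. Cyp2d36-ps had 1.50 and 2.92 FPKM in JIB-04 livers, against 3.89 and 3.99 FPKM in untreated livers (limma adjusted p = 0.227). For Cyp2d38-ps the values were 14.7 and 15.2 FPKM in JIB-04 livers and 15.3 and 19.5 FPKM in untreated livers. These groups barely failed to overlap, and only untreated 2 stood apart (limma adjusted p = 0.606). None of the 6 tested coding genes of that cluster was called. Cyp2d36-ps and Cyp2d38-ps shared 0% of their 50-base windows with another gene, and Cyp2d37-ps 3.19%, so few or no reads of that length would match both.

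Cyp3a63-ps, an unprocessed relic in the Cyp3a cluster of chromosome 5, had 2.65 and 7.40 FPKM in JIB-04 livers and 2.75 and 2.69 FPKM in untreated livers. Only JIB-04 2 stood out, and the log2 change of 0.57 (limma adjusted p = 0.651) became -0.03 without that library. Of the 7 tested coding genes of that cluster 3 rose. Gm5827, a retrocopy of the nuclear receptor gene Nr1d2 beside Cyp2c70, had 1.93 and 0.693 FPKM in JIB-04 livers and 2.30 and 4.08 FPKM in untreated livers (limma adjusted p = 0.351). Near the Cyp2a and Cyp2b genes of chromosome 7, Gm44964 had 3.60 and 3.62 FPKM in JIB-04 livers and 2.76 and 2.39 FPKM in untreated livers (limma adjusted p = 0.226). This copy of Cyp2g1, a P450 gene, was higher in both treated livers.

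Rnf170-ps, a retrocopy of a ubiquitin ligase gene, sits inside Cyp2b13 on the same strand. It had 2.85 and 1.27 FPKM in JIB-04 livers and 2.60 and 2.03 FPKM in untreated livers, which overlap. Cyp2b13, which fell, had 58.0 and 43.3 FPKM in JIB-04 livers, against 191 and 161 FPKM in untreated livers. Rnf170-ps stood at 4.92% and 2.93% of the Cyp2b13 level in JIB-04 livers and at 1.36% and 1.27% in untreated livers, and 86.7% of its windows occur in another gene's transcript. Gm29920, 3366 bases from Cyp2b13 and below the level of 2 FPKM, was chosen after its values were seen. It had 0.371 and 0.0361 FPKM in JIB-04 livers, against 2.03 and 2.60 FPKM in untreated livers, and fell (log2 change -1.47, limma adjusted p = 0.0176). Only untreated livers carried Gm29920 past the mean of 1 FPKM needed for the test, so its direction was largely fixed by that filter.

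The only pseudogene near carboxylesterases, Gm45727 between Ces1 genes of chromosome 8, had 2.08 and 3.71 FPKM in JIB-04 livers and 3.05 and 2.45 FPKM in untreated livers, with overlapping groups. Its best match, Ces1g, averaged 70.4 FPKM in JIB-04 livers and 40.4 FPKM in untreated livers and rose (limma adjusted p = 0.0457), but only 57.7% of Gm45727 aligned to it. Among pseudogenes below 2 FPKM, Cyp2c52-ps near Cyp2c55 and Gm7208 near the Ces2 genes rose (chosen after their values were seen). They too reached the mean of 1 FPKM needed for the test only through JIB-04, which largely fixed their direction. Cyp2c52-ps had 3.24 and 2.77 FPKM in JIB-04 livers, against 0.750 and 0.528 FPKM in untreated livers (limma adjusted p = 0.0113). Gm7208 had 2.62 and 2.50 FPKM in JIB-04 livers, against 0.184 and 0.288 FPKM in untreated livers (limma adjusted p = 0.00528).

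Of the remaining called pseudogenes, Gm11451, a retrocopy of Hacd1 (a dehydratase of very long chain fatty acid elongation), had 8.18 and 10.5 FPKM in JIB-04 livers, against 4.16 and 3.15 FPKM in untreated livers. Its mean was 2.55-fold higher in JIB-04 livers (limma adjusted p = 0.0250, log2 change 1.15, SE 0.167). Hacd1 had 4.72 and 5.89 FPKM in JIB-04 livers and 2.05 and 3.49 FPKM in untreated livers and did not pass the test (adjusted p = 0.152). Gm10275, a copy of the ribosomal protein gene Rpl12 with 0 substitutions in its reading frame, had 86.3 and 94.5 FPKM in JIB-04 livers, against 51.8 and 50.6 FPKM in untreated livers (log2 change 0.81, limma adjusted p = 0.0279). Rpl12 rose too, with 64.7 and 69.5 FPKM in JIB-04 livers and 40.2 and 40.3 FPKM in untreated livers (adjusted p = 0.0362). As 99.8% of the windows of Gm10275 occur in another transcript, the reads of these genes cannot be told apart.

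Gm3787 (chr15:77253692-77261163, minus strand), the pseudogene that fell, had 1.04 and 1.45 FPKM in JIB-04 livers, against 5.13 and 4.96 FPKM in untreated livers (log2 change -1.44, SE 0.143, limma adjusted p = 0.00642). Only 22.4% of it aligned to its best match, Tmsb10, an actin-binding thymosin, and 0.968% of its windows were shared. Its nearest coding gene on the same strand, Apol7a (an apolipoprotein L gene), 11256 bases away, averaged 16.7 FPKM in JIB-04 livers and 35.0 FPKM in untreated livers and fell too (limma adjusted p = 0.0205). Without JIB-04 1 or JIB-04 2 the adjusted p of Gm3787 was 0.0709 or 0.0672. For Gm10275 it was between 0.0912 and 0.177 without any of the 4 libraries in turn, and for Gm11451 it was 0.120 without JIB-04 1, 0.192 without JIB-04 2 and 0.0742 without untreated 2.

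Serpina4-ps1, an unprocessed relic among the serine protease inhibitor genes of chromosome 12, is named here after its values were seen. It had 10.4 and 28.1 FPKM in JIB-04 livers, against 159 and 283 FPKM in untreated livers. The groups did not overlap and the log2 change of -3.55 was the lowest of all tested genes, yet libraries of a group differed so much (SE 0.639) that it did not pass the test (limma adjusted p = 0.150). None of its 50-base windows was shared with another gene.

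Across the 401 pseudogenes whose best coding match was also tested, the log2 change of the pseudogene and that of the match had a Pearson's r of 0.558 and a Spearman's rho of 0.408, and 269 had the same sign. These are points across genes that share libraries, depth and, through reads matching both, possibly reads, and they are not independent. Leaving out matches to Gst, Sult and P450 genes gave an r of 0.330 and a rho of 0.376 over 392 pseudogenes. With 90% or more of windows shared the r was 0.249 (n = 115), and with under 10% shared it was 0.563 (n = 22). Between these it was 0.721 with 10 to 50% shared (n = 84) and 0.403 with 50 to 90% (n = 180). From the lowest share to the highest, rho was 0.639, 0.373, 0.428 and 0.322.

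**Figure D4:**
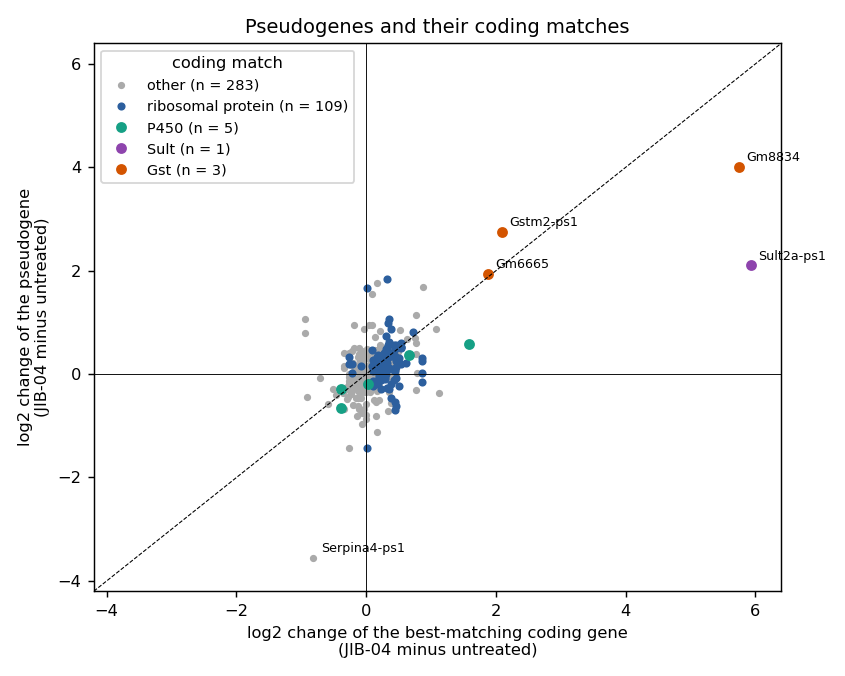
Log2 change in FPKM + 1 (JIB-04 minus untreated) of each pseudogene (y axis) against that of its best-matching coding gene (x axis), coloured by the family of the match; the dashed line marks equal change. Gm8834 (4.02) and Sult2a-ps1 (2.11) lie right of the line, below their matches Gstm3 (5.74) and Sult2a1 (5.93). Gstm2-ps1 lies above the line, and Gm6665 slightly above it. The 109 copies of ribosomal protein genes gather near 0, most of them above it.

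Copies of ribosomal protein genes, which are among the most frequently retrocopied genes of mammals, formed 114 of the 436. Only Gm10275 of them rose and 0 fell. In 87 the log2 change was above 0 and in 27 below, with a median of 0.20. Of the 81 tested coding ribosomal protein genes 1 rose and 0 fell, 76 had a log2 change above 0, and their median was 0.29. Copies of respiratory chain and ATP synthase genes (25) had a median of 0.04 and 0 calls (limma, 1 at an unadjusted p under 0.05), and the 8 copies of mitochondrial genome stretches a median of 0.02 and 0 calls (limma, 0 at an unadjusted p under 0.05). Rescaling to TPM without the 50 most abundant and mitochondrially encoded genes gave a median of 0.06 over all 436 and of -0.04 over all tested genes, so the distance between them stayed about the same.

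Levels ran from 2.01 to 311 FPKM, with a median of 5.69. A mean of 100 FPKM or more was reached by 22 pseudogenes, while 192 were under 5. Rpl34-ps1 (chr6:71101594-71101947, plus strand) was the highest, with 308 and 357 FPKM in JIB-04 livers and 299 and 278 FPKM in untreated livers, a difference that did not pass the test (limma adjusted p = 0.585). Its parent Rpl34, 99.4% identical, was listed at only 1.24 and 2.08 FPKM in JIB-04 livers and 2.52 and 1.85 FPKM in untreated livers. All 50-base windows of Rpl34-ps1 also occur in another gene's transcript.

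The same order, copy far above parent, held for other pseudogenes of the highest level. Gm13394, within the span of Cfap77 and 99.9% identical to the glycolytic gene Gapdh, had 221 and 257 FPKM in JIB-04 livers and 164 and 171 FPKM in untreated livers (limma adjusted p = 0.137). Gapdh was listed at 5.36 and 2.23 FPKM in JIB-04 livers and 2.80 and 5.28 FPKM in untreated livers. Gm12191, a copy of Rpl30, had 232 and 222 FPKM in JIB-04 livers and 191 and 187 FPKM in untreated livers, where Rpl30 averaged 2.39 and 2.14 FPKM. Gm10039, a copy of the ATP synthase subunit gene Atp5g1, had 243 and 262 FPKM in JIB-04 livers and 218 and 237 FPKM in untreated livers. Atp5g1 averaged 14.1 FPKM in JIB-04 livers and 12.8 FPKM in untreated livers. Gm5424, a copy of Ass1 (an enzyme of the urea cycle), had 164 and 191 FPKM in JIB-04 livers and 228 and 254 FPKM in untreated livers (limma adjusted p = 0.197). It was below Ass1, which averaged 368 FPKM in JIB-04 livers and 699 FPKM in untreated livers.

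Of the 377 close copies, those at least 95% identical over at least 90% of their length, 114 had a higher mean FPKM than their coding match and 21 were at 10 times its level or more. Among 106 close copies of ribosomal protein genes 26 exceeded the match. Of the Gst copies, Gstm2-ps1, Gm8834 and Gm6665 lay below their matches Gstm1, Gstm3 and Gstm2. Gstp-ps, also a close copy, lay at more than 10 times the level of its best match Gstp2 (mean 0.346 FPKM) but below Gstp1.

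**Figure D5:**
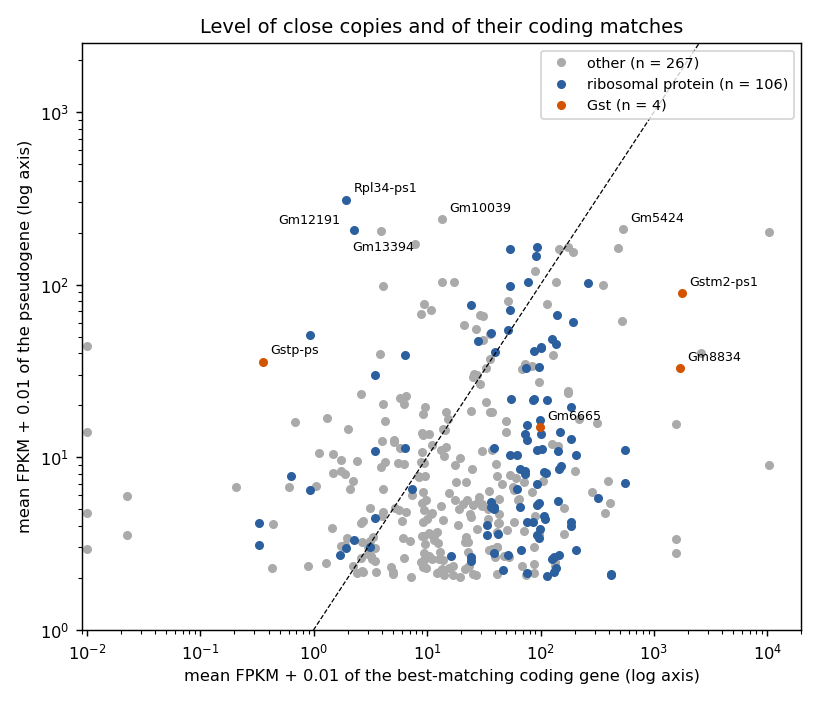
Mean FPKM + 0.01 over the 4 libraries of 377 close copies (y axis, log) against that of the best-matching coding gene (x axis, log), with the dashed line at equal level. Rpl34-ps1, Gm12191, Gm13394, Gm10039 and Gstp-ps lie far above the line, whereas Gm5424, Gm8834 and Gstm2-ps1 lie below it.

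Among unprocessed pseudogenes the highest were a mitochondrial pair on chromosome 1 and a serpin copy. Gm29216, 99.8% identical to the mitochondrial gene mt-Co1, had 146 and 253 FPKM in JIB-04 livers and 246 and 159 FPKM in untreated livers, which overlap fully. Gm10925, identical to mt-Atp6, had 187 and 179 FPKM in JIB-04 livers and 136 and 159 FPKM in untreated livers (limma adjusted p = 0.344), a level close to that listed for mt-Atp6 itself, 172 FPKM in JIB-04 livers and 175 FPKM in untreated livers. Gm8893, a copy of Serpina1a (alpha-1-antitrypsin) within the span of Serpina1b, had 120 and 156 FPKM in JIB-04 livers and 202 and 176 FPKM in untreated livers (limma adjusted p = 0.256).

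Among transcribed unprocessed ones, Scp2-ps2, a copy of the sterol carrier gene Scp2, had 54.9 and 56.3 FPKM in JIB-04 livers and 69.4 and 66.2 FPKM in untreated livers (limma adjusted p = 0.313). Mug-ps1, a relic of the murinoglobulin protease inhibitors, had 27.2 and 53.7 FPKM in JIB-04 livers and 14.4 and 21.6 FPKM in untreated livers (limma adjusted p = 0.344), whereas Mug2, its match, averaged 10.1 FPKM in JIB-04 livers and 19.7 FPKM in untreated livers. Neither passed the test, although the groups of each did not overlap, and Mug-ps1 passed only with the replicate number as a block (adjusted p = 0.0119). Rps7-ps3 and Ubb-ps, transcribed processed copies of a ribosomal protein and a ubiquitin gene, averaged 178 and 44.8 FPKM in JIB-04 livers and 151 and 34.8 FPKM in untreated livers. Rpl17-ps10, the third by level of the pseudogenes named after a ribosomal protein, averaged 176 FPKM in JIB-04 livers and 147 FPKM in untreated livers. Of the plain biotype, AY036118 averaged 15.0 FPKM in JIB-04 livers and 14.8 FPKM in untreated livers and Gm6467, a copy of the proteasome gene Psmb3, 4.60 and 4.09 FPKM. Slc2a4rg-ps averaged 2.30 FPKM in JIB-04 livers and 2.02 FPKM in untreated livers.

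Just inside the level of 2 FPKM were Gm7658 (2.01 over all libraries) and Gm5182 (2.01). Just outside were Thap6 (2.00, rounded up), Gm17971 (1.98) and Gm12715 (1.97). Low levels rested on few reads: 164 of the 436 had under 100 reads on average, and the median was 149 reads a library.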

How the data were processed

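The authors deposited gene FPKM values, 1 column per library, with gene lengths, GRCm39 coordinates and biotypes. GRCm39 is the build per the submitters' processing notes. For the annotation release, the strand setting, the aligner, and the counter with its treatment of reads matching several places, the sources used here state nothing. FPKM times gene length gave whole reads for 100% of values (tolerance 0.01). Libraries held 36469514 to 43283827 reads. The counting interval covers counting error only.

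Values were log2(FPKM + 1), and the 10819 genes with a mean of at least 1 FPKM were tested with limma 3.58.1 in R 4.3.3 (two-sided, moderated with trend and robust options, no block; 2 degrees of freedom remained), with Benjamini-Hochberg adjustment over all of them and calls at an adjusted p under 0.05. The fold on this scale understates the change of low genes. A fold in the text is a ratio of mean FPKM. The fit was tested on simulated data with 200 changed genes. There 11.2% of 224 calls were false, a share above the threshold on the adjusted p. Best coding matches came from blastn 2.17.0 (E-value 1e-10) against GENCODE M21 transcripts (GRCm38), joined by gene ID, with reading frames aligned in Biopython 1.88. No coordinates were converted between builds.

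The pseudogenes and gene lists were chosen with earlier results of these data known. Named were all called pseudogenes, all near a cluster, the 5 highest, the 3 highest of each biotype and of those named after a ribosomal protein, the 3 on each side of the level of 2 FPKM, and the nearest and the most similar coding gene. Others are marked as chosen after their values were seen, and a few values under this rule are left out here. The closing section gives the effect of other choices: a pseudocount of 0.1 or 0.5, testing every gene with a read or only those with a mean of at least 5, conversion to TPM (also after dropping mitochondrially encoded genes and the 50 most abundant), quantile normalization, plain moderation in limma, voom on the reads, a replicate block, leaving out each library, other levels for choosing pseudogenes, pseudogenes with under 50% of windows shared, and distances of 50 and 500 kb.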

Additional observations from a re-analysis of the deposited data

How the results depend on the processing

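The count of pseudogenes called higher (8) was 2 with no filter on level and 18 with the replicate number as a block. Over all tested genes the count called higher (165) was 20 of 25266 with no filter and 236 with the block. Among the 619 pseudogenes with a mean of at least 1 FPKM 13 were called higher. Among the 122 with under 50% of their windows shared it was 5. Under the other alternatives that kept every library it was 7 to 11. The count called lower (1) was 0 with no filter, with a mean of at least 5 FPKM tested and among pseudogenes with a mean of at least 5 FPKM. Both choices at 5 FPKM keep 244 of the 436 and leave out Gm3787, the pseudogene that fell. The count called lower was 2 with TPM without the most abundant genes, with plain moderation and at a mean of at least 1 FPKM. It was 3 with voom and 5 with the block. Over all tested genes the count called lower (67) was 0 with no filter, 99 with that TPM and 45 with plain moderation. It was 162 with voom and 121 with the block. Near a cluster the count called higher (2) was 1 with no filter and 4 with the block. It was 6 of 22 at a mean of at least 1 FPKM. With a mean of at least 5 FPKM tested, and among pseudogenes at that level, it was 1. There 4 of the 14 near a cluster remain, without Sult2a-ps1. The count called lower near a cluster was 1 at a mean of at least 1 FPKM and 0 otherwise. The median log2 change of all pseudogenes (0.10) was 0.0596 with TPM without the most abundant genes, where that of all tested genes also shifted, to -0.0370 against 0.007 as deposited. With no filter, which raises the number of genes tested, Gm8834 and Zbed4-ps1 kept their calls and the other calls were lost (limma adjusted p 0.0827 to 0.241). Apart from pseudogenes that a level leaves out or adds, the cause of the other shifts was not tested. Whether replicate numbers pair the animals is not given by the labels. Deviations of same-numbered libraries from their group means had a correlation of -0.0492. With 2 libraries a group this is the same value for both pairs, and it cannot decide the question.

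Among 40 pseudogenes followed singly, 9 changed sign, none of them called. With a library left out, the log2 change ranged from -0.44 to 0.35 for Gm29216, from -0.34 to 0.32 for AY036118, from -0.66 to 0.32 for Obox4-ps2, from -0.24 to 0.46 for Gm6467, from -0.0272 to 1.17 for Cyp3a63-ps, from -0.28 to 0.33 for Gm45727, from -0.54 to 0.22 for Rnf170-ps, from -0.11 to 0.34 for Slc2a4rg-ps and from -0.14 to 0.23 for Gm7658. Gm45727 was also -0.0161 with TPM without the most abundant genes and -0.0241 with voom. Serpina4-ps1 passed the test with plain moderation (limma adjusted p = 0.0328), with voom (0.00156) and with the block (6.46e-05). The block also brought Mug-ps1 (0.0119), Gm47935 (0.0177) and Tmem167-ps1 (0.0117) past the threshold. Gm47940 passed with a pseudocount of 0.1 (0.0447), with TPM (0.0421) and with TPM without the most abundant genes (0.0488). Gm11451 missed the threshold with voom (0.0616), as did Gstp-ps with plain moderation (0.0580).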
